A study of Mus musculus with 20 samples.

Results

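Interferon-stimulated genes were described as a module of 36 genes, chosen by name from textbook knowledge of the response to type I interferon. The table of counts holds 51826 genes, of which 20407 had at least 5 counts in at least 5 libraries and were tested, and all 36 module genes were among them. RNA was sequenced from primary renal myofibroblasts, grown from pieces of C57BL/6J mouse kidneys. The 4 groups, with 5 libraries each, were wild-type (WT) cells and cells lacking the E3 ubiquitin ligase WWP2 (WWP2-/-, labelled KO), either untreated or treated with TGFb1, the cytokine that drives fibroblasts to become contractile, matrix-producing myofibroblasts. Per the study, the WWP2-/- cells lack the full-length and N-terminal isoforms, and *Wwp2* reads could still be counted in them. The labels give neither the dose nor the duration of TGFb1, which the study states for such cultures elsewhere. The study describes its data points in general as separate mice or cells from separate mice, but no label ties a library to an animal, so that *P* values measure the spread between these libraries, which may be technical in part.

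In the classical scheme, type I interferons bind the receptor IFNAR and activate the kinases JAK1 and TYK2, which phosphorylate transcription factors such as STAT2. Together with IRF9, STAT2 is part of a complex that binds the interferon-stimulated response element in promoters. The induced genes include sensors of foreign RNA, factors that enlarge the response, enzymes that restrict viral replication, and a ubiquitin-like protein, ISG15, with the protease USP18 that removes it and shuts the receptor down. Fibroblasts of most organs can both secrete interferon beta and respond to it.

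The letters of the response element were looked for in the promoters. The genes were chosen as known targets of interferon, so a raised share was likely in advance. It cannot show why the genes moved together in these libraries. Of the 36 genes, 28 had a promoter window in RefSeq (GRCm38.p6), from 250 bases before to 50 bases after the start. The letters GAAA, any 2 bases, and GAAA again, searched on both strands with overlaps allowed, was found in the windows of 13 of these 28 (46.4%) and of 1079 of 27025 genes (3.99%). Among genes with 1 window, the shares were 12 of 24 (50%) and 3.58%. In *Ifih1*, *Ddx58*, and *Eif2ak2* the match lay after the start. The last 150 bases before the start are shown for 6 members of the main families, from 5′ to 3′ along the transcribed strand, with each match to these letters or their reverse complement in capitals. They are *Isg15* (chr4:156200819-156200968, minus strand), *Ifit1* (chr19:34640739-34640888, plus), *Ifit3* (chr19:34583379-34583528, plus), *Oas3* (chr5:120777660-120777809, minus), *Rsad2* (chr12:26456453-26456602, minus), and *Gbp3* (chr3:142559894-142560043, plus).
Isg15: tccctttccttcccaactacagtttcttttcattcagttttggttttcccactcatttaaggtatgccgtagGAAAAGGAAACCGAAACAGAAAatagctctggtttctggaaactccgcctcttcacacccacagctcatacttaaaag
Ifit1: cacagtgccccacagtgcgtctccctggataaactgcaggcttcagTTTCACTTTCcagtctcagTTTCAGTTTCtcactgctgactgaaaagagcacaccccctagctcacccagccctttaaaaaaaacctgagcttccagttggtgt
Ifit3: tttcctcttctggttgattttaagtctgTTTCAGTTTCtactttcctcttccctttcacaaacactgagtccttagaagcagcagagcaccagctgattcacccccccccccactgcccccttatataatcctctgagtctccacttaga
Oas3: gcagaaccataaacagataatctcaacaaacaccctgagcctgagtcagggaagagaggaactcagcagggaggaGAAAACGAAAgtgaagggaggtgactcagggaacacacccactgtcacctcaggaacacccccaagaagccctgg
Rsad2: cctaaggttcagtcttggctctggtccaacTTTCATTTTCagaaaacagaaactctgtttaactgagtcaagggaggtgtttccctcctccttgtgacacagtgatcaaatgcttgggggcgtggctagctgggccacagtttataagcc
Gbp3: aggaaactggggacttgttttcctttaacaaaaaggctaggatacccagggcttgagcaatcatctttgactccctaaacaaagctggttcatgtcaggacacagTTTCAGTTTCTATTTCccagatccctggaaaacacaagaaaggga
*Isg15* carried 3 overlapping matches ending 57 bases before the start, *Ifit1* carried 2 separate matches, and the 2 matches in *Gbp3* overlapped. A match describes letters and does not show binding.

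Several libraries stood apart in ways the groups do not explain, and these values are given first because the module moved with some of them. Totals lay between 47520759 and 73063697 counts per library. *Wwp2* was at 20.5±1.62 CPM (counts scaled to the normalized library total) in untreated WWP2-/- and 53.1±4.14 CPM in untreated WT libraries, and at 19±1.72 and 53.5±2.89 CPM with TGFb1 (mean±SD, *n*=5 each), without overlap in either comparison (*P* = 0.00794 by exact permutation of the labels, two-sided, which is the lower limit for 5 against 5). *Xist*, transcribed from the inactive X chromosome of female cells, was between 33.7 and 291 CPM in 11 libraries and at most 0.12 CPM in the other 9. Those with *Xist* were 4 of 5 in both WT groups, 2 of 5 in untreated WWP2-/-, and 1 of 5 in TGFb1-treated WWP2-/-, so that *Xist* and genotype were partly confounded. *Ddx3y*, a gene of the Y chromosome, was between 90.9 and 166 CPM in the libraries without *Xist*, and it was also found beside *Xist* in 5 of the 11 others, at 39.0, 36.9, and 18.9 CPM in WT untreated replicates 1, 2, and 5, 38.5 CPM in TGFb1-treated WT replicate 1, and 110 CPM in untreated WWP2-/- replicate 1. These 5 libraries held RNA of both kinds, and how they came to do so was not tested. A library with *Xist* thus means here one with *Xist* above 1 CPM, whatever its level of *Ddx3y*. *Pdgfra*, a fibroblast marker, was between 14.4 and 179 CPM in the libraries with *Xist* and between 0.543 and 1.87 CPM in those without. *Acta2*, which defines myofibroblasts, was at 38.9 CPM in untreated WWP2-/- replicate 3 and 50.4 CPM in TGFb1-treated WWP2-/- replicate 1, and between 1016 and 3430 CPM in the other 18. None of the 8 TGFb1 target genes examined was called by edgeR between TGFb1-treated and untreated libraries of either genotype, where 0.0% of all tested genes were called. The log2 fold change was positive for 7 of the 8 in WT (median 0.28) and for 4 of the 8 in WWP2-/- cells (median 0.07).

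The interferon-stimulated genes were high as a block in some libraries of 3 of the 4 groups and in none of WT untreated cells. The mean of log2(CPM + 0.5) over the 36 genes was 3.49, 3.43, 3.39, 3.18, and 3.60 in WT untreated replicates 1 to 5. It was 6.32, 7.22, 2.62, 3.73, and 6.79 in TGFb1-treated WT, and 5.16, 2.76, 7.40, 2.62, and 2.83 in untreated WWP2-/- replicates. In TGFb1-treated WWP2-/- replicates it was 7.54, 2.57, 2.46, 2.86, and 3.04. The WT untreated libraries lay close together, whereas each of the other groups held libraries both above and below all of them.

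**Figure D1:**
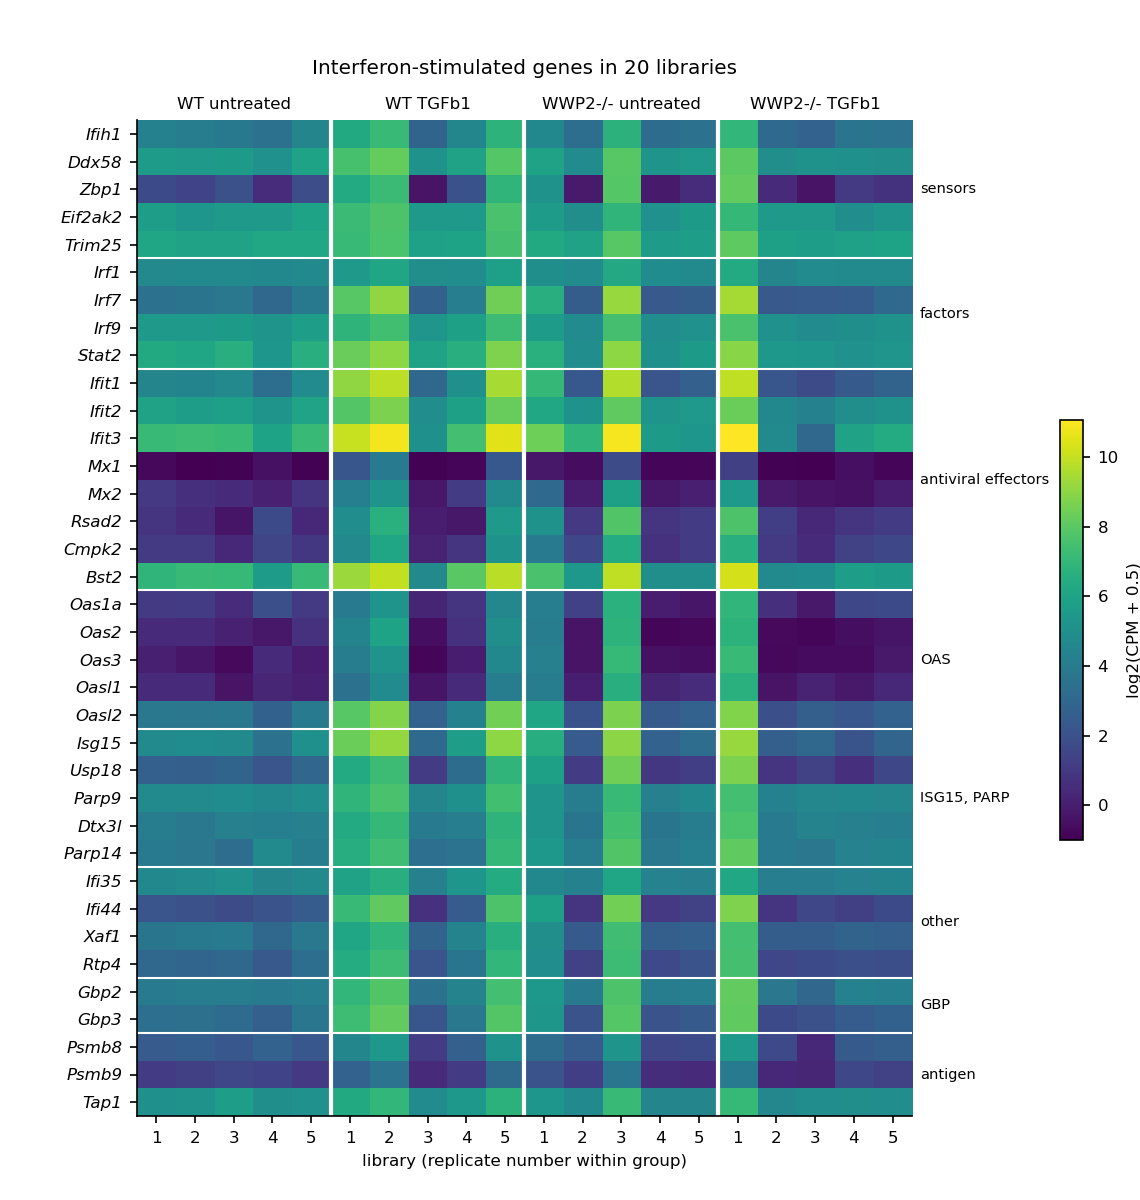
Log2(CPM + 0.5) of the 36 interferon-stimulated genes (rows, by role) in the 20 libraries (columns, by group and replicate number), with color as in the scale. TGFb1-treated WT replicates 1, 2, and 5, untreated WWP2-/- replicate 3, and TGFb1-treated WWP2-/- replicate 1 were high in nearly all rows, and untreated WWP2-/- replicate 1 was intermediate.

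All 36 genes were above their level in each WT untreated library in TGFb1-treated WT replicates 1, 2, and 5, in untreated WWP2-/- replicate 3, and in TGFb1-treated WWP2-/- replicate 1. Untreated WWP2-/- replicate 1 was above for 31 genes and TGFb1-treated WT replicate 4 for 20. In the opposite direction, 25 genes of TGFb1-treated WT replicate 3 were below each WT untreated library. The same held for 23, 26, and 21 genes in untreated WWP2-/- replicates 2, 4, and 5, and for 27, 25, 21, and 17 genes in TGFb1-treated WWP2-/- replicates 2 to 5. How many of all tested genes lay outside the WT untreated range in these libraries was not counted. The counts above therefore do not show that the module differed from other genes in this respect. The 36 genes together made up between 0.0403% and 1.14% of all counts in a library.

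Within groups, the genes spread more widely than most. The SD of log2(CPM + 0.5) among libraries of a group, averaged over the 4 groups, had a median of 1.70 over the 36 genes (range, 0.50–2.78) and of 0.24 over the 20407 genes tested. It exceeded the 90th percentile of tested genes for 33 of 36 and the 95th for 30 of 36. The group of WT untreated cells was the exception in size, with a median SD of 0.34 over the module and 0.19 over all genes tested, against 2.16 and 0.23 in TGFb1-treated WT, 2.15 and 0.24 in untreated WWP2-/-, and 2.21 and 0.28 in TGFb1-treated WWP2-/- cells. After each group's mean was subtracted, each gene's correlation with the mean of the other 35 over the 20 libraries had a median Pearson *r* of 0.98 (range, 0.88 for *Mx1* to 0.997). These correlations are a description, since all genes of a library share its depth and its mixture of cells.

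The 3 genes with the largest spread were *Zbp1*, *Ifi44*, and *Ifit1*. *Zbp1* (ENSMUSG00000027514, chr2:173206612-173218923), a sensor of left-handed nucleic acids, was at 2.78, 2.20, 3.52, 0.947, and 3.07 CPM in WT untreated replicates 1 to 5 and at 82.5, 150, 0.279, 3.64, and 118 CPM with TGFb1. In WWP2-/- cells it was at 36.3, 0.416, 238, 0.419, and 0.934 CPM untreated, and at 284, 0.898, 0.282, 1.60, and 1.21 CPM with TGFb1. The highest library, TGFb1-treated WWP2-/- replicate 1, and one of the lowest, replicate 3, thus belonged to the same group.

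*Ifi44* (ENSMUSG00000028037, chr3:151730922-151749960), whose product dampens viral replication, was at 4.03, 3.44, 2.96, 3.73, and 5.19 CPM in WT untreated replicates and at 144, 274, 1.16, 5.17, and 205 CPM in WT with TGFb1. It was at 56.9, 1.31, 363, 1.5, and 2.03 CPM in untreated WWP2-/- and at 428, 1.28, 2.42, 1.90, and 2.80 CPM in TGFb1-treated WWP2-/- replicates. Apart from the high libraries, all 7 remaining WWP2-/- libraries were at or below 2.80 CPM, below each WT untreated library. TGFb1-treated WT replicate 3, at 1.16 CPM, was below them as well. None of these low libraries had *Xist* above 1 CPM, and the share of all tested genes with this pattern was not counted.

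*Ifit1* (ENSMUSG00000034459, chr19:34640871-34650009), which binds viral RNA with an abnormal cap and whose promoter carries 2 separate matches above, was at 22.2, 21.4, 25.0, 9.75, and 27.9 CPM in WT untreated replicates. With TGFb1 the WT replicates were at 531, 936, 7.64, 33.1, and 724 CPM. The WWP2-/- replicates were at 131, 4.58, 812, 4.04, and 6.06 CPM untreated and at 954, 4.21, 2.99, 4.87, and 6.71 CPM with TGFb1. TGFb1-treated WT replicates 1, 2, and 5, untreated WWP2-/- replicates 1 and 3, and TGFb1-treated WWP2-/- replicate 1 were above 100 CPM, and the 14 others were at most 33.1 CPM.

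**Figure D2:**
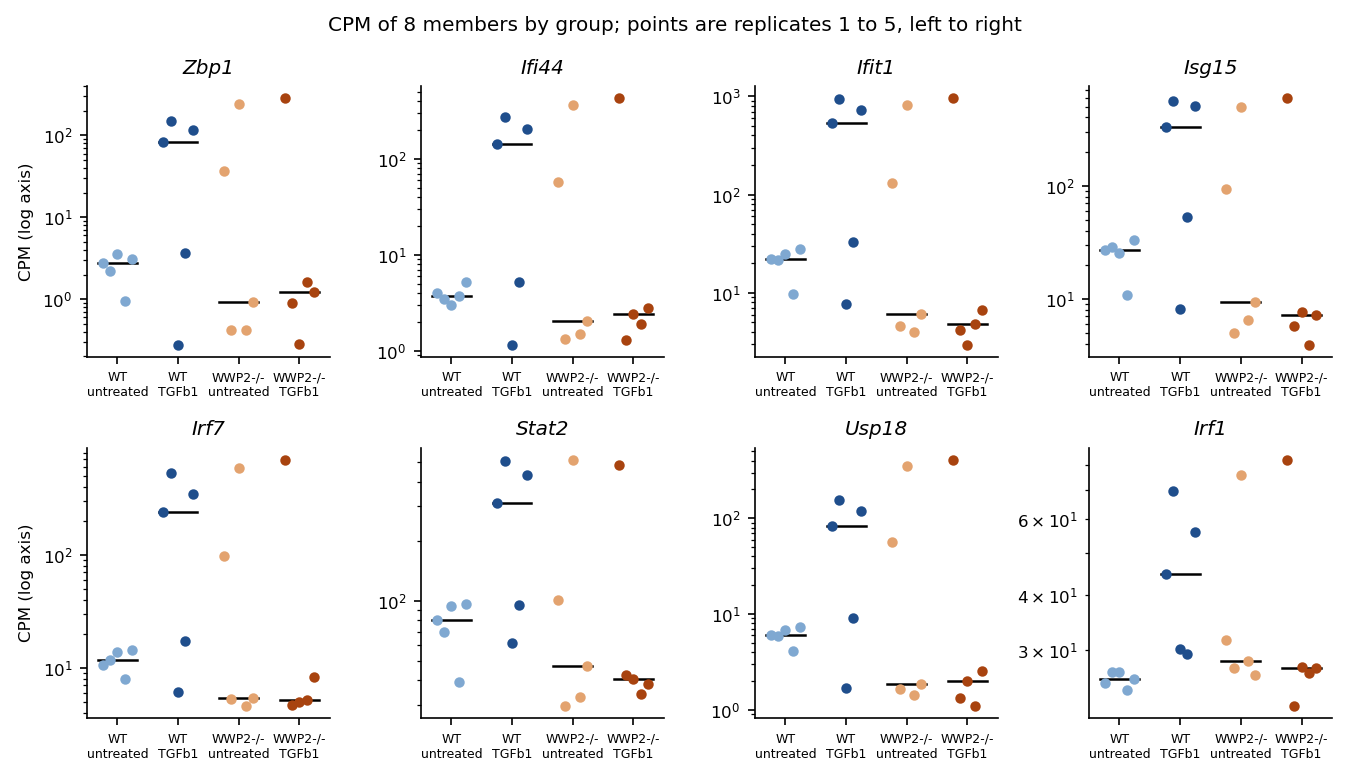
CPM (log axis) of 8 interferon-stimulated genes in the 4 groups, with 1 point per library (replicates 1 to 5 from left to right) and the group median as a line. *Ifit1* lay between 9.75 and 27.9 CPM in WT untreated libraries and between 2.99 and 954 CPM in TGFb1-treated WWP2-/- libraries.

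The next 5 genes were chosen after their values were seen, to show other roles in the module. *Isg15* (ENSMUSG00000035692, chr4:156199424-156200818), the ubiquitin-like modifier, was at 26.8, 28.7, 25.6, 10.8, and 32.9 CPM in WT untreated and at 327, 560, 8.12, 52.3, and 507 CPM in TGFb1-treated WT replicates. It was at 92.4, 4.99, 499, 6.50, and 9.29 CPM in untreated WWP2-/- and at 591, 5.75, 7.67, 3.94, and 7.19 CPM in TGFb1-treated WWP2-/- replicates. Each WWP2-/- library outside the high ones was below 10.8 CPM, the lowest WT untreated value, and so was TGFb1-treated WT replicate 3. These low libraries had no *Xist* above 1 CPM, and the share of all tested genes with this pattern was not counted.

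*Usp18* (ENSMUSG00000030107, chr6:121245906-121270917), the protease that removes ISG15 and restrains the receptor, was at 6.09, 5.86, 6.79, 4.10, and 7.30 CPM in WT untreated and at 83.7, 154, 1.68, 9.13, and 118 CPM in TGFb1-treated WT replicates. In WWP2-/- replicates it was at 56.5, 1.66, 349, 1.42, and 1.88 CPM untreated and at 408, 1.33, 2.02, 1.10, and 2.56 CPM with TGFb1. The top values of *Usp18* in WWP2-/- libraries, 349 and 408 CPM, exceeded its top WT value of 154 CPM, whereas those of *Isg15* were close to the top WT value of 560 CPM.

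*Irf7* (ENSMUSG00000025498, chr7:141262706-141266481), the factor that drives the interferon alpha genes and enlarges the response, was at 10.7, 11.8, 13.8, 8.06, and 14.3 CPM in WT untreated and at 242, 532, 6.17, 17.2, and 343 CPM in TGFb1-treated WT replicates. Untreated WWP2-/- replicates were at 98.1, 5.35, 587, 4.61, and 5.43 CPM and those with TGFb1 at 694, 4.71, 5.0, 5.16, and 8.30 CPM. The 6 libraries above 100 CPM of *Ifit1* held the 6 highest values, and the others were at most 17.2 CPM.

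*Stat2* (ENSMUSG00000040033, chr10:128270559-128292849), a subunit of the complex that binds the response element, was at 80.2, 70.2, 94.3, 39.4, and 96.6 CPM in WT untreated and at 311, 511, 61.7, 95.6, and 429 CPM in TGFb1-treated WT replicates. It was at 102, 29.6, 515, 32.8, and 47.0 CPM in untreated WWP2-/- and at 483, 42.4, 40.5, 34.1, and 38.5 CPM in TGFb1-treated WWP2-/- replicates. *Irf1* (ENSMUSG00000018899, chr11:53770014-53778374), a factor that interferon gamma induces most strongly, had the smallest spread in the module. It was at 25.2, 26.6, 26.7, 24.2, and 25.6 CPM in WT untreated and at 44.9, 69.5, 30.2, 29.3, and 55.8 CPM in TGFb1-treated WT replicates. In WWP2-/- replicates *Irf1* was at 31.6, 27.3, 75.9, 28.3, and 26.3 CPM untreated and at 82.1, 22.2, 27.3, 26.5, and 27.2 CPM with TGFb1. Both factors were highest in the same libraries as the effectors, over a narrower range.

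The highest level reached differed between the genes. For the 35 genes with a median of at least 10 counts in WT untreated libraries, the highest library was between 3.20-fold (*Irf1*) and 302-fold (*Oas3*) above the WT untreated median, with a median of 17.8-fold, and 21 genes were over 10-fold. Among sensors, *Zbp1* reached 102-fold, *Ifih1* (MDA5) 8.32-fold, *Ddx58* (RIG-I) 6.28-fold, the kinase *Eif2ak2* (PKR) 4.65-fold, and *Trim25*, which activates RIG-I, 3.84-fold. Among factors, *Irf7* reached 58.9-fold, *Stat2* 6.42-fold, and *Irf9*, the DNA-binding subunit of the complex, 4.34-fold.

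Among antiviral effectors, *Rsad2* (viperin) reached 255-fold and *Cmpk2*, its neighboring gene, 62.9-fold, and the GTPase *Mx2* reached 52.6-fold. *Ifit1* reached 42.9-fold, *Ifit3* 15.3-fold, *Bst2* (tetherin) 9.26-fold, and *Ifit2* 7.35-fold. *Mx1*, of which C57BL/6 mice are known to carry a defective allele, had too few counts in WT untreated libraries for a fold, and its CPM was between 0.0185 and 0.217 in 4 of them and 0 in replicate 2. It was highest in TGFb1-treated WT replicate 2, at 14.4 CPM, and at 2.88 and 1.92 CPM in untreated WWP2-/- replicate 3 and TGFb1-treated WWP2-/- replicate 1. Thus *Mx1* was higher in the high WT libraries, at 4.17, 14.4, and 4.43 CPM, than in any WWP2-/- library.

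In the family of oligoadenylate synthetases and their relatives, of which the synthetases produce the activator of RNase L, *Oas3* reached 302-fold, *Oasl1* 143-fold, *Oas2* 131-fold, *Oas1a* 76.3-fold, and *Oasl2* 33.3-fold. *Usp18* reached 67.1-fold and *Isg15* 22.1-fold, the ADP-ribosyltransferases *Parp14* 18.9-fold and *Parp9* 7.13-fold, and *Dtx3l*, the ubiquitin ligase that partners *Parp9*, 11.2-fold. Among other induced genes, *Ifi44* reached 115-fold, *Rtp4* 24.2-fold, *Xaf1* 12.5-fold, and *Ifi35* 3.63-fold. The guanylate-binding proteins *Gbp3* and *Gbp2* reached 28.2-fold and 17.8-fold. Among genes of antigen processing, the immunoproteasome subunits *Psmb8* and *Psmb9* reached 9.22-fold and 7.66-fold and the peptide transporter *Tap1* 4.04-fold. TGFb1-treated WWP2-/- replicate 1 held the highest value of 22 genes, TGFb1-treated WT replicate 2 of 9, and untreated WWP2-/- replicate 3 of 5.

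Levels were compared between genes per kilobase of exon, as the mean CPM per kilobase over the 20 libraries. *Bst2* was highest at 332, followed by *Ifit3* at 286 and *Isg15* at 186 CPM per kilobase. *Mx1* was lowest at 0.386, then *Psmb9* at 1.1 and *Oas3* at 2.69 CPM per kilobase. At the WT untreated median, *Bst2* was still highest, at 147 CPM per kilobase, and *Oas3* was at 0.068. The strand setting of the counting is not given in the sources used here, and genes with close copies, such as *Ifit3* with *Ifit3b*, *Oas1a* with its neighbors, *Oasl1* with *Oasl2*, and the *Gbp* genes, may share reads, so that their single values are uncertain.

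The first comparison asked whether TGFb1 changed the module in WT cells. All 36 log2 fold changes were positive, with a median of 2.82 (range, 0.84–5.98), and 26 had an unadjusted *P* below 0.05, yet 0 of 36 had an adjusted *P* below 0.05 by edgeR's quasi-likelihood test. The share of all tested genes called was 0.0% in this comparison, where the median log2 fold change was 0.02 and 1397 genes had an unadjusted *P* below 0.05. The Wald test of DESeq2 called 1 of the 36, *Mx1*, higher with TGFb1 (0.0637% of all tested genes were called higher and 0.0686% lower). The log2 fold change was 4.39 for *Ifit1* (standard error 1.86, adjusted *P* = 0.674, edgeR), 3.54 for *Isg15* (standard error 1.57, adjusted *P* = 0.698), and 4.82 for *Zbp1* (standard error 2.09, adjusted *P* = 0.687). It was 5.02 for *Ifi44*, 4.28 for *Irf7*, 3.61 for *Usp18*, 1.89 for *Stat2*, and 0.84 for *Irf1*. TGFb1-treated replicates 1, 2, and 5 were high, and replicates 3 and 4 were not. With *Xist* as a covariate the median was 1.48, all 36 estimates were positive, and 0 were called (0.0049% of all tested genes). *Irf1* was the only module gene whose 5 TGFb1-treated WT libraries were all above the 5 untreated ones, and the groups did not overlap for 1.35% of all tested genes.

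In WWP2-/- cells, TGFb1 gave log2 fold changes with a median of 0.01 over the module (range, −0.65 to 0.21), of which 20 of 36 were positive. By edgeR 0 of 36 were called, with 0 below an unadjusted *P* of 0.05 (beside 3.49% of all tested genes), and DESeq2 called 0 of 36. Of all tested genes, edgeR called 0.0% and DESeq2 called 0.0049% higher and 0.181% lower. The high libraries were 1 with TGFb1 and 2 without it, and the median moved to −3.03 without TGFb1-treated replicate 1 and to 1.76 without untreated replicate 3. For no module gene were these groups separate, and they were separate for 0.377% of all tested genes.

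The interaction asked whether the response to TGFb1 differed between genotypes. All 36 estimates were negative, with a median of −2.74 (range, −6.63 to −0.87), and 0 of 36 were called by edgeR (0.0% of all tested genes) or by DESeq2, which called 0.0098% of all tested genes higher and 0.0392% lower. By edgeR 1 of 36 had an unadjusted *P* below 0.05, and 1424 of all tested genes did. The median was between −5.70 and −1.07 when single libraries were left out.

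Between untreated WWP2-/- and WT cells, all 36 log2 fold changes were positive with a median of 1.95 (range, 0.17–6.01), and 0 of 36 were called by edgeR, whereas 0.725% of all tested genes were (0.103% higher and 0.622% lower). An unadjusted *P* below 0.05 was found for 10 of 36, beside 14.9% of all tested genes. DESeq2 called 3, *Oas3*, *Oasl1*, and *Rsad2*, as higher in WWP2-/- cells (1.04% of all tested genes were called higher and 2.6% lower by it). The log2 fold change was 3.17 for *Ifit1* (standard error 1.76, adjusted *P* = 0.405, edgeR), 2.30 for *Isg15* (standard error 1.49, adjusted *P* = 0.482), 3.77 for *Usp18*, 4.47 for *Zbp1*, and 4.45 for *Ifi44*. It was 3.58 for *Irf7*, 0.93 for *Stat2*, and 0.56 for *Irf1*. Without untreated WWP2-/- replicate 3, the median over the module fell from 1.95 to 0.28, 22 of 36 estimates were positive, and the estimate for *Stat2* was −0.53. For no module gene were the libraries of these groups separate, and they were separate for 2.79% of all tested genes.

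Between TGFb1-treated WWP2-/- and WT cells, 31 of 36 log2 fold changes were negative, with a median of −0.70 (range, −3.38 to 0.89). By edgeR 0 of 36 were called, against 6.07% of all tested genes (2.1% higher and 3.96% lower). An unadjusted *P* below 0.05 was found for 3 of 36, beside 24.7% of all tested genes. DESeq2 called 0 of 36, against 6.29% of all tested genes as higher and 6.8% as lower. With *Xist* as a covariate the direction of the module turned, to a median of 0.16 with 22 of 36 estimates positive, and 0 of 36 were called (2.67% of all tested genes). Without the covariate, the log2 fold change was −1.20 for *Ifit1* (standard error 1.64, adjusted *P* = 0.703, edgeR), −1.24 for *Isg15* (standard error 1.44, adjusted *P* = 0.642), −1.14 for *Stat2*, and −0.67 for *Irf7*. It was −0.53 for *Ifi44*, −0.31 for *Irf1*, −0.30 for *Zbp1*, and 0.18 for *Usp18*. The 5 positive estimates were those of *Oas3*, *Oasl1*, *Oas1a*, *Rsad2*, and *Usp18*. For no module gene were the libraries separate, against 5.67% of all tested genes.

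The outcome of this last comparison rested on 1 library. Without TGFb1-treated WWP2-/- replicate 1, which had 50.4 CPM of *Acta2*, all 36 estimates were negative with a median of −3.61, and 23 of 36 were called lower in WWP2-/- cells, beside 6.06% of all tested genes. With untreated WWP2-/- replicate 3 also left out, which enters this comparison only through the shared estimate of spread, 34 of 36 were called lower (the exceptions were *Oas1a* and *Psmb9*), beside 9.41% of all tested genes, and the log2 fold change was −6.56 for *Ifit1* (adjusted *P* = 0.0106, edgeR) and −5.55 for *Isg15* (adjusted *P* = 0.0101). The 4 WWP2-/- libraries that then remained with TGFb1 had no *Xist*, and 4 of the 5 WT libraries had it, so that genotype and *Xist* cannot be told apart there. The WT library without *Xist*, replicate 3, had a module mean of 2.62, inside the 2.46 to 3.04 of these 4 WWP2-/- libraries.

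**Figure D3:**
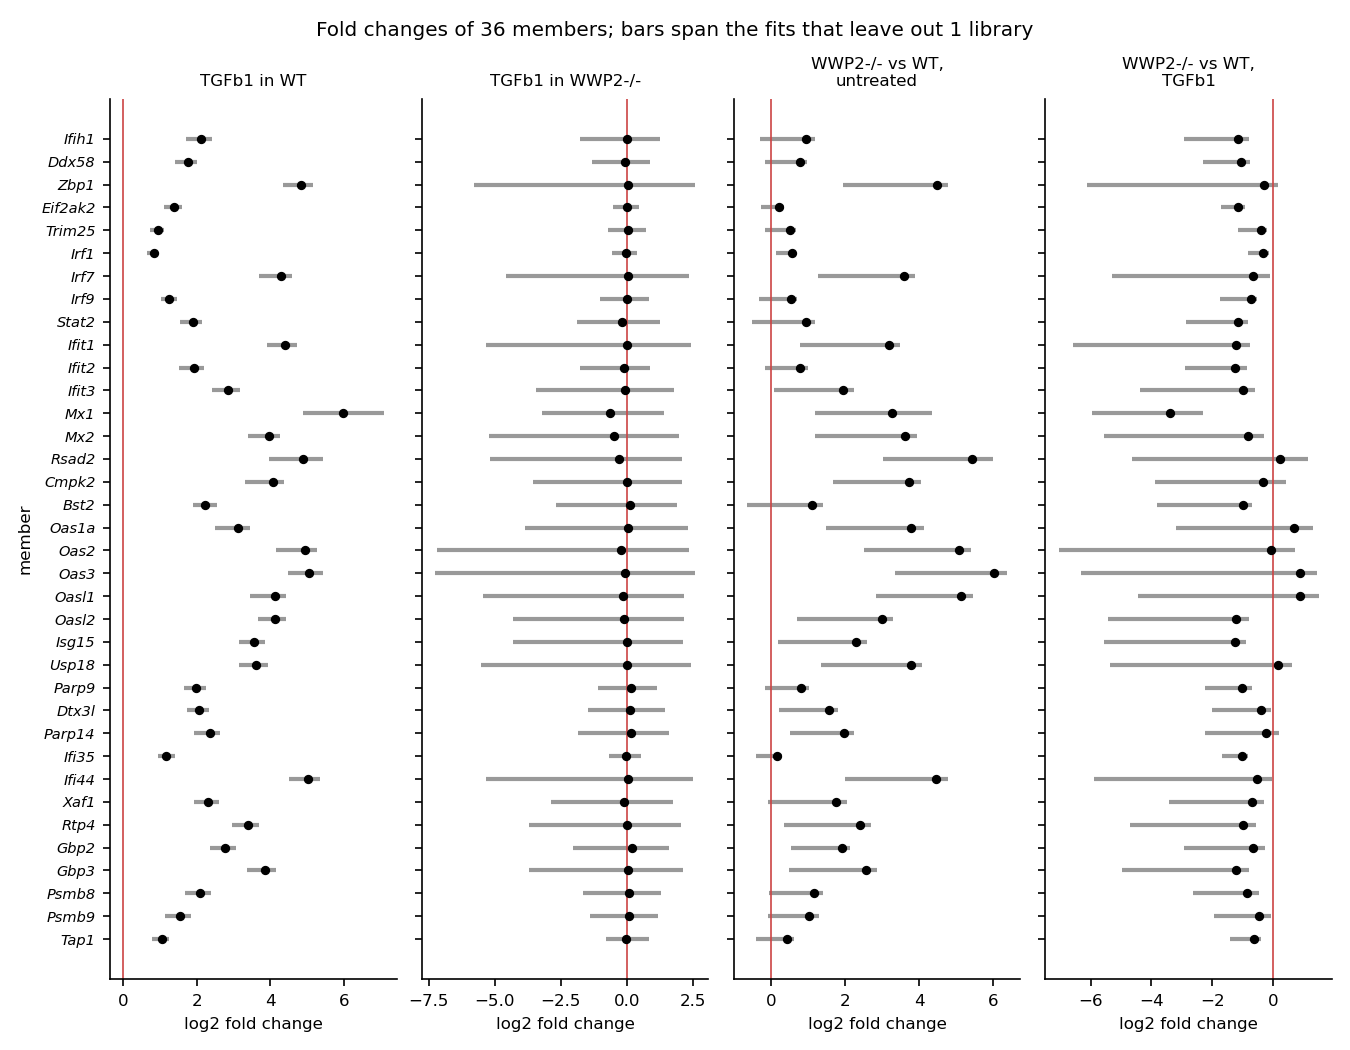
Log2 fold change of each of the 36 genes in the 4 comparisons between groups (points), with bars from the lowest to the highest value over fits that each left out 1 library, and a line at 0. Bars were short for TGFb1 in WT cells and long on the negative side for WWP2-/- against WT cells with TGFb1, where the value of *Ifit1* moved between −6.56 and −0.74.

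The level of the module moved with *Xist*. In the 11 libraries with *Xist* above 1 CPM the module mean was between 3.39 and 7.54, and in the 9 without it was between 2.46 and 3.18, without overlap. For 21 of 36 module genes each library with *Xist* was above each library without, among them *Ifit1*, *Isg15*, *Irf7*, *Stat2*, *Usp18*, *Bst2*, and *Gbp3*, and the same kind of separation, in either direction, held for 2.42% of all tested genes. *Bst2* was between 119 and 1231 CPM in libraries with *Xist* and between 25.2 and 54.4 CPM in those without. All high libraries had *Xist*, but so did WT untreated replicates 1, 2, 3, and 5, whose module mean was between 3.39 and 3.60. The fibroblast marker *Dcn* was between 201 and 1452 CPM with *Xist* and between 6.69 and 52.1 CPM without, and *Pdgfra* split the libraries in the same way. The sum of 10 fibroblast markers overlapped, at 7660 to 40757 CPM with *Xist* and 14246 to 62811 CPM without. *Xist* and these 2 markers cannot be told apart here, and which of them the module followed was not tested.

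Within libraries of the same *Xist* status the comparisons took other values. Among libraries with *Xist*, the module mean with TGFb1 was 7.54 in the single WWP2-/- library and on average 6.02 in 4 WT libraries, and untreated it was on average 6.28 in 2 WWP2-/- and 3.48 in 4 WT libraries. Among libraries without *Xist*, it was on average 2.73 in 4 WWP2-/- libraries and 2.62 in 1 WT library with TGFb1, and 2.73 in 3 WWP2-/- libraries and 3.18 in 1 WT library untreated. No test was made within these classes, and fits with *Xist* as a covariate called 0 of 36 genes in each of the 5 comparisons. Of all tested genes, these fits called 2.67% between genotypes with TGFb1, 0.407% between untreated genotypes, and 0.0049% with TGFb1 in WT cells. They called 0.0% with TGFb1 in WWP2-/- cells and for the interaction, so that 0 of 36 does not set the module apart there. The difference between genotypes with TGFb1 was thus −1.64 over all libraries, 1.52 with *Xist*, and 0.12 without it.

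Markers of other cells were examined because a culture from whole kidney pieces can hold them, and because in bulk RNA fewer cells of a type and less RNA per cell cannot be told apart. The summed level of 12 macrophage markers, of which *Cd68*, *Lyz2*, and *Ptprc* were above 0 in each library, was between 165 and 4144 CPM in WT untreated, 83.7 and 473 CPM in TGFb1-treated WT, 92.9 and 1882 CPM in untreated WWP2-/-, and 90.7 and 3695 CPM in TGFb1-treated WWP2-/- libraries. It was 159, 83.7, and 84.8 CPM in TGFb1-treated WT replicates 1, 2, and 5. The sum was 604 and 92.9 CPM in untreated WWP2-/- replicates 1 and 3 and 90.7 CPM in TGFb1-treated WWP2-/- replicate 1. The other 14 libraries ranged from 165 to 4144 CPM, so 5 of the 6 libraries with high module genes had the lowest macrophage sums of all. The sums of 10 tubular epithelial markers were 13.8 and 12.1 CPM in the WWP2-/- libraries low in *Acta2*, and between 32.8 and 708 CPM in the other 18. Those of 8 endothelial markers were 19.9 and 25.7 CPM and between 46.0 and 233 CPM in the same order. Lymphoid and dendritic markers summed to at most 62.1 CPM, and 3 of 10 passed the filter on low counts.

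Among fibroblast markers, *Dcn* (decorin) was at 1147 CPM in untreated WWP2-/- replicate 3 and 1452 CPM in TGFb1-treated WWP2-/- replicate 1, the highest values of all, while the sum of 10 fibroblast markers was lowest there, at 7660 and 9052 CPM against 14246 to 62811 CPM in the other 18. The other high libraries had *Acta2* between 1432 and 1999.5 CPM. Over tested genes outside the module, TGFb1-treated WWP2-/- replicate 1 was most like untreated WWP2-/- replicate 3 (Pearson *r* of log2(CPM + 0.5) across genes, 0.997, against 0.958 for the next library). The part of cell composition in the levels of the module was not tested.

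**Figure D4:**
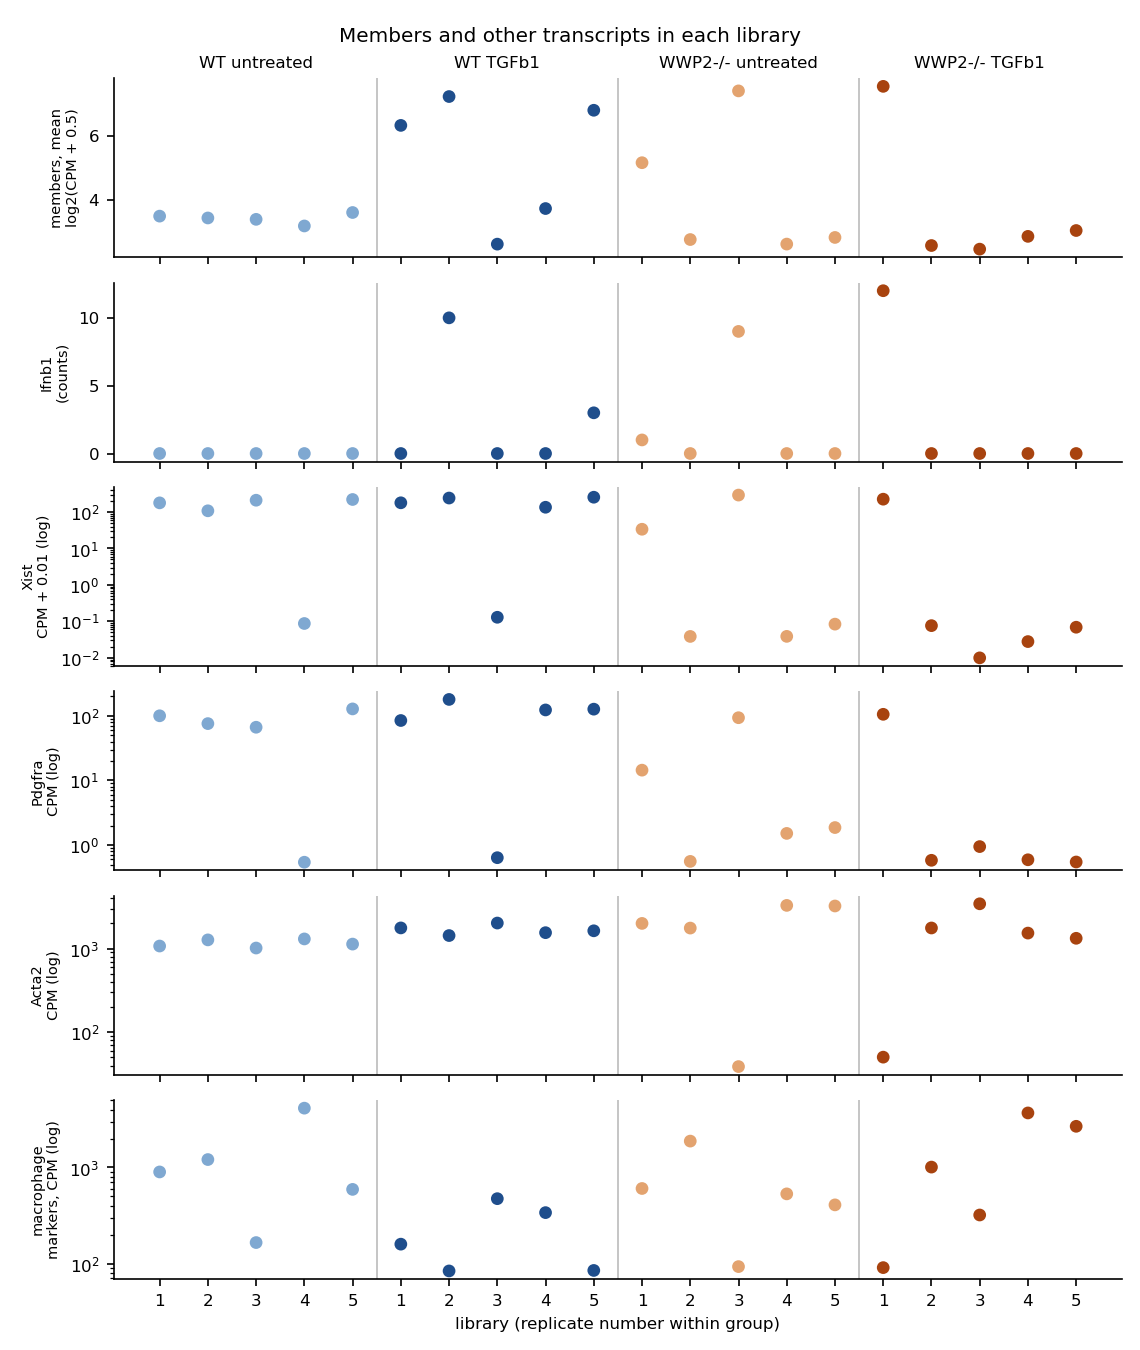
Each library (x axis, by group and replicate number) with the mean log2(CPM + 0.5) of the 36 genes, the counts of *Ifnb1*, and on log axes the CPM of *Xist* (plus 0.01), *Pdgfra*, and *Acta2* and the summed CPM of 12 macrophage markers. *Ifnb1* counts were above 0 in 5 libraries, all with a module mean of at least 5.16.

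The interferon ligands were at or near the limit of detection. Of 21 ligand genes in the list, 1 passed the filter on low counts, *Ifnz*, and it was not called in any comparison. *Ifnb1*, the interferon that fibroblasts secrete first, had 10 and 3 counts in TGFb1-treated WT replicates 2 and 5, 1 and 9 counts in untreated WWP2-/- replicates 1 and 3, and 12 counts in TGFb1-treated WWP2-/- replicate 1. It had 0 counts in the other 15 libraries, which allows up to 3 counts, at most 0.0631 CPM. *Ifna4* had 5 and 1 counts in TGFb1-treated WT replicates 2 and 5 and 0 elsewhere. TGFb1-treated WT replicate 1, with 531 CPM of *Ifit1*, had no count of either. Other ligands had similar counts in libraries where the module was not high. *Ifne* had 11 counts in untreated WWP2-/- replicate 3, 4 in WT untreated replicate 4, and 3 in untreated WWP2-/- replicate 5. The interferon alpha genes together had 6 counts in TGFb1-treated WT replicate 2, 4 in replicate 4 of that group, and 3 in untreated WWP2-/- replicate 5.

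Of the 6 receptor genes, *Ifnar2*, a chain of the type I receptor, varied most like the module (Pearson *r* = 0.94 of group-centered values with the mean of the 36 genes over 20 libraries), at 104 and 109 CPM in the WWP2-/- libraries low in *Acta2* and between 32.3 and 67.4 CPM in the other 18. Its partner *Ifnar1* was nearly level, between 82.7 and 122 CPM. *Ifngr2*, of the interferon gamma receptor, was between 104 and 140 CPM in WT untreated, 115 and 147 CPM in TGFb1-treated WT, 132 and 179 CPM in untreated WWP2-/-, and 137 and 263 CPM in TGFb1-treated WWP2-/- libraries. It rose in WWP2-/- cells with TGFb1, by 0.52 on the log2 scale (standard error 0.15, adjusted *P* = 0.0474, edgeR), and passed in 3 of 10 fits that left out 1 library.

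Among 12 genes of inhibitors and nucleic acid clearance, of which 11 were tested, *Samhd1*, which degrades deoxynucleotides, fell in WWP2-/- cells with TGFb1 (log2 fold change −1.51, standard error 0.27, adjusted *P* = 0.00783, edgeR), and passed in all 10 fits that left out 1 library. It was at 198, 275, 118, 104, and 228 CPM in TGFb1-treated WT and at 77.7, 58.4, 32, 80.9, and 75.8 CPM in TGFb1-treated WWP2-/- replicates, without overlap. Untreated, it was between 77.5 and 98.8 CPM in WT and between 74.4 and 127 CPM in WWP2-/- libraries. *Ptpn2*, a phosphatase that acts on JAK1, rose in WWP2-/- cells with TGFb1 by 0.53 on the log2 scale (adjusted *P* = 0.0330, edgeR), from between 21.2 and 23.1 CPM in WT to between 21.9 and 39.2 CPM, and passed in 3 of those 10 fits. In this and the other list comparisons of genotypes with TGFb1, 6.07% of all tested genes were called. Of the 104 tested pathway genes, 2 were called higher and 4 lower there, which is near that share.

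Among 46 other interferon-induced genes, 3 fell in WWP2-/- cells with TGFb1 and 0 rose, and the median log2 fold change was −0.73 beside 0.05 over all tested genes. *Ifitm1*, which blocks fusion of viral membranes, fell by 3.61 on the log2 scale (standard error 0.74, adjusted *P* = 0.0123, edgeR), from between 1.70 and 4.35 CPM in WT to between 0 and 0.606 CPM, and passed in all 10 fits that left out 1 library. *Ifitm2* fell by 1.27 (adjusted *P* = 0.0304) and *Pml*, which organizes nuclear bodies, by 0.87 (adjusted *P* = 0.0449), and they passed in 4 and 3 of those 10 fits. *Ifitm1* did not follow the block and was at 0.362 CPM in untreated WWP2-/- replicate 3 and 0.606 CPM in TGFb1-treated WWP2-/- replicate 1, where the module was highest. Untreated, *Ifitm1* was between 0.182 and 0.459 CPM in WWP2-/- libraries and between 1.85 and 3.39 CPM in WT replicates 1, 2, 3, and 5. WT untreated replicate 4, the one without *Xist*, was lower than all of these, at 0.171 CPM. With *Xist* as a covariate, *Samhd1* and *Ifitm1* still passed (adjusted *P* = 0.0284 and 0.0297, edgeR), and *Ifitm2*, *Pml*, *Ptpn2*, and *Ifngr2* did not.

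No gene of the lists of 13 sensors and adaptors, 6 regulatory factors, 12 genes of MHC class I presentation, or 4 chemokines was called by edgeR in any of the 5 comparisons, and 0 of all 104 tested pathway genes were called in the 4 comparisons other than that of genotypes with TGFb1. Unadjusted *P* values below 0.05 were found for 38 of 104 with TGFb1 in WT cells, 0 with TGFb1 in WWP2-/- cells, 18 between untreated genotypes, and 13 for the interaction, beside 6.85%, 3.49%, 14.9%, and 6.98% of all tested genes. DESeq2 called 2, 0, 7, and 0 of the 104, beside 0.132%, 0.186%, 3.64%, and 0.049% of all tested genes. The chemokine *Cxcl10*, which attracts T cells, was at 27.4, 94.3, and 42.1 CPM in TGFb1-treated WT replicates 1, 2, and 5, at 29.9 and 176 CPM in untreated WWP2-/- replicates 1 and 3, and at 232 CPM in TGFb1-treated WWP2-/- replicate 1. It was at most 1.76 CPM in the other 14. *H2-K1*, a heavy chain of MHC class I, reached at most 549 CPM in TGFb1-treated WT, 1977 CPM in untreated WWP2-/-, and 2210 CPM in TGFb1-treated WWP2-/- libraries. These are the highest single libraries of each group. Over the 12 genes of MHC class I presentation, the median log2 fold change between genotypes with TGFb1 was −0.33, with 4 of 12 positive.

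The 10 genes outside the module whose group-centered log2(CPM + 0.5) was most like the module mean over the 20 libraries were *Gbp6*, *Dhx58*, *Oas1b*, *Ddx60*, *Gm4951*, *Phf11d*, *Slfn8*, *Iigp1*, *Cxcl9*, and *Nos2*, with *r* between 0.989 and 0.995. Of these 10, 7 were in the pathway lists, and *Ddx60*, *Gm4951*, and *Nos2* were not. *Cxcl9*, another chemokine of T cells, was between 0 and 0.0409 CPM in WT untreated libraries and reached 30.8, 23.4, and 38.2 CPM in TGFb1-treated WT, untreated WWP2-/-, and TGFb1-treated WWP2-/- libraries. *Nos2*, the inducible nitric oxide synthase, was at most 0.124 CPM in WT untreated libraries and reached 22.1, 32.1, and 46.8 CPM in the same order. Over all tested genes outside the module, 253 (1.24%) had *r* above 0.9.

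The proportions between module genes were not the same in all high libraries, and these ratios were chosen after the values were seen. The ratio of *Usp18* to *Isg15* CPM was 0.256, 0.276, and 0.233 in TGFb1-treated WT replicates 1, 2, and 5. It was 0.611 and 0.698 in untreated WWP2-/- replicates 1 and 3 and 0.691 in TGFb1-treated WWP2-/- replicate 1, and between 0.174 and 0.378 in the other 14. The ratio of *Oas3* to *Ifit1* was 0.0321, 0.0394, and 0.0338 in these WT libraries and 0.141, 0.164, and 0.152 in these WWP2-/- libraries. It was between 0.00491 and 0.0908 in the other 14, where WT untreated replicate 4 had the highest value, above the high WT libraries. In both ratios the high libraries of the genotypes did not overlap, but these libraries are few, differ in *Acta2* and were not selected by the design, and no test was made.

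**Figure D5:**
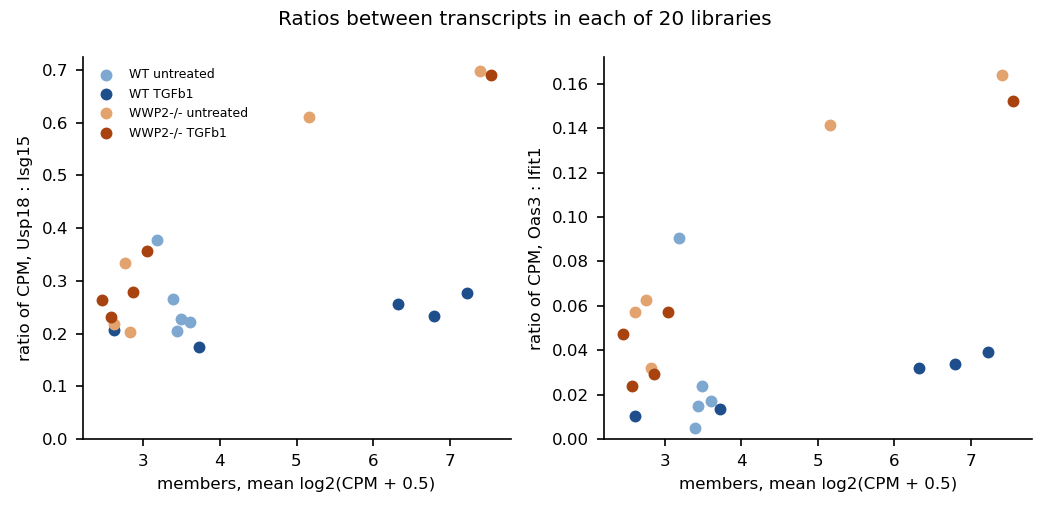
Ratios of CPM between transcripts of interferon-stimulated genes (y axes, from 0) against the mean log2(CPM + 0.5) of the 36 genes (x axis) in the 20 libraries, colored by group. At a module mean above 5, WWP2-/- libraries had *Usp18* to *Isg15* ratios of 0.611 to 0.698 and WT libraries 0.233 to 0.276.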

How the data were processed

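RNA from primary renal myofibroblasts was sequenced in 20 libraries. Per the labels and the paper's methods, STAR was used by the authors to align paired reads of poly-A RNA to GRCm38 and featureCounts to count exons, and the values deposited are whole-number counts per gene without normalization. The strand setting and the versions are not given in the sources used here. Symbols and positions were taken from GENCODE release M21 on the same build, and promoters from RefSeq.

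Counts were normalized by TMM and fitted with 4 groups, using edgeR 4.0.16 (glmQLFit, glmQLFTest) in R 4.3.3. A gene entered if 5 or more libraries held 5 or more of its counts. *P* values were adjusted over all 20407 genes (Benjamini–Hochberg, threshold 0.05). Wald tests used DESeq2 1.42.0. The scripts were tested on simulated data. A count of 0 allows up to 3 counts by counting error alone, and the precision rests on totals of 47520759 to 73063697 counts. The members, lists and tests were chosen with earlier results of these data known. Named were the 3 members of largest spread, genes called, extremes of level and the 10 most alike, and, after their values were seen, *Isg15*, *Usp18*, *Irf7*, *Stat2*, *Irf1*, *Ifnar1*, *Ifnar2*, *Cxcl10*, *H2-K1*, and the ligands. Alternatives comprised other size factors, filters, blocks, *Xist* as a covariate, and left-out libraries. After the values were seen, the split by *Xist*, the omission of libraries with *Acta2* below 100 CPM, *Wwp2* without TMM factors, and the alternatives for the pathway lists were added. 1 gene of the pathway lists is not reported here.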

Additional observations from a re-analysis of the deposited data

Results flagged for a closer look

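Single libraries stood far from the other 4 of their group by Dixon's test, which marks about 1 group in 20 by chance, and did so in 17 of 36 combinations of a measure and a group. All were high libraries of WWP2-/- cells, and no cause was tested. In TGFb1-treated WWP2-/- cells, replicate 1 took a share of the group's range above its neighbor of 0.886 for the mean over the 36 genes. The share was 0.995 for *Zbp1*, 0.996 for *Ifi44*, *Ifit1*, and *Usp18*, 0.994 for *Isg15*, 0.995 for *Irf7*, 0.981 for *Stat2*, and 0.915 for *Irf1*. In untreated WWP2-/- cells, replicate 3 stood apart, with 0.849 for *Zbp1*, 0.846 for *Ifi44*, 0.842 for *Ifit1*, 0.823 for *Isg15*, 0.839 for *Irf7*, 0.851 for *Stat2*, 0.841 for *Usp18*, and 0.892 for *Irf1*. The genes were chosen for their spread within groups or after their values were seen, and they move together, so the count is not to be read against the share that chance gives. No library of WT cells stood apart by this test.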

How the results depend on the processing

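With 5 libraries per group and spreads of this size, no adjusted *P* below 0.05 was reached for any of the 36 genes by edgeR with all libraries, and the cause of changes below was not tested. The number called was 1 with TGFb1 in WT cells and 3 between untreated genotypes by DESeq2's Wald test. Between genotypes with TGFb1 it was 34 without the libraries low in *Acta2*, and between 0 and 23 when single libraries were left out, with 23 only without TGFb1-treated WWP2-/- replicate 1. In the other 4 comparisons it was 0 without any single library, beside at most 3.65% of all tested genes. Other size factors, other filters, an adjusted *P* of 0.01, and fits of only the groups compared gave 0 in all comparisons in which they were run. Between genotypes with TGFb1, the share of all tested genes called was 5.97% with other size factors and 2.25% without the filter. It was 2.79% with only these groups and 7.73% with at least 10 counts in every library, where 33 of the 36 genes were tested. In the other comparisons these fits called at most 0.813%.

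Between genotypes with TGFb1, *Xist* as a covariate turned the median over the 36 genes from −0.70 to 0.16, and the log2 fold change to 0.94 for *Zbp1*, 0.38 for *Ifi44*, 0.15 for *Irf7*, and 0.14 for *Irf1*. Leaving out single libraries gave between −6.13 and 0.17 for *Zbp1* and between −5.38 and 0.63 for *Usp18*, and between −0.53 and 1.19 for *Stat2* between untreated genotypes. Without the libraries low in *Acta2* it was −5.38 for *Usp18* with TGFb1 and −0.56 for *Stat2* untreated. The mean over the 36 genes was 3.81 in WT untreated cells with an offset of 2 CPM. With the offset of 0.5 CPM and in libraries with *Xist*, it was 6.28 in untreated WWP2-/- cells (2 libraries) and 7.54 in TGFb1-treated ones (1 library). Without *Xist* it was 3.18 in untreated and 2.62 in TGFb1-treated WT cells (1 library each).

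Replicate numbers did not pair the libraries across all groups, with correlations of same-numbered deviations between −0.59 and 0.52. Between untreated WT and untreated WWP2-/- libraries, the best match did have the same number for replicates 1, 2, 3, and 5 (correlations 0.27, 0.31, 0.46, and 0.19). With the replicate number as a block, 0 of 36 genes were called in all 5 comparisons. Of all tested genes, this block called 0.0049% between untreated genotypes and 0.0% for TGFb1 in either genotype and for the interaction. The log2 fold change of *Usp18* between genotypes with TGFb1 was then −3.43, and 3 pathway genes were called there instead of 6 (3.28% of all tested genes instead of 6.07%). Between untreated genotypes the block moved the median over the 36 genes from 1.95 to 0.88.

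The number of pathway genes called between genotypes with TGFb1 is given with the share of all tested genes in parentheses. It was 12 by the Wald test (13.1%), 3 without the filter (2.25%), 2 in a fit of only these groups (2.79%), and 61 without the libraries low in *Acta2* (16.9%). Without single libraries it was between 2 and 35, with 35 without TGFb1-treated WWP2-/- replicate 1 (9.98%) and 14 without TGFb1-treated WT replicate 3 (13.2%). Between untreated genotypes the number was 7 by the Wald test (3.64%) and 3 with *Xist* as a covariate (0.407%). Without single libraries it was 0 to 2 there, with 2 without WT untreated replicate 4 (3.65%). For TGFb1 in WT cells it was 2 by the Wald test (0.132%) and 1 with *Xist* as a covariate (0.0049%). The difference in *Wwp2* with TGFb1 was −30.8 CPM without TMM factors.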
